A study of Mus musculus with 12 samples.

Results

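The genes described here are 36 genes of mitosis, chosen by name as markers of dividing cells out of the 52670 gene symbols in the expression files. All 36 were found in the files, and all 36 passed the filter on low counts that 17432 symbols passed. The question they address is where dividing cells lie along the brightness of a Sox2 reporter in taste epithelium. RNA came from the epithelium of the circumvallate papilla, a taste-bud-rich structure of the posterior mouse tongue. All mice were adults of 11 to 12 weeks with the genotype Sox2GFP, in which green fluorescent protein (GFP) reports Sox2, a transcription factor of taste progenitors. The epithelium was peeled off, dissociated and sorted by flow cytometry into 4 bins of GFP brightness, called Low, MedLow, HiMed and High. GFP-negative cells were discarded, so all 4 bins, the dimmest included, hold cells with GFP. There are 12 libraries, 3 to a bin, and every replicate pooled 7 to 13 mice. The bins hold mixtures of cell types, with no label of their makeup. In such bulk libraries, fewer dividing cells and less mitotic RNA per dividing cell cannot be told apart. Tests measure the spread between the 3 libraries of each bin. Libraries of different bins with the same replicate number were taken to share a pool of mice. The main tests hold no term for this, and a fit with the replicate number as a block was run as an alternative.

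Mitosis is the stage at which a cell separates its copied chromosomes into daughter cells. Cyclin B with the kinase Cdk1 starts it, the spindle and kinetochores align the chromosomes, the anaphase-promoting complex then destroys cyclin B, and cytokinesis cuts the cell apart. Most of these genes are transcribed late in the cell cycle, so their RNA is scarce in cells that do not divide. In taste epithelium, dividing progenitors lie in the basal layer around the taste buds and replace both taste cells and the surrounding keratinocytes, whereas mature taste cells do not divide.

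Library totals lay between 25.7 M counts in Low replicate 2 and 55.6 M in HiMed replicate 3. A mitosis gene had between 231 counts (Ndc80) and 24826 (Mki67) in a library. Sox2 itself lay at 63.8 to 76.1 CPM (counts scaled to library size with TMM factors) in Low and at 358 to 382 in High. The basal keratinocyte markers, 8 of 8, were detected in all bins of this labelled epithelium. Over the 17432 genes, 48.7% of the calls between High and Low were higher in High. That share was 55.6% with library size alone as the scaling and 66.9% on log2(TPM + 1), where TPM is a unit that also adjusts for transcript length. The TPM scale moved the median of all genes by 0.14 (log2) in High against Low and by 0.15 in High against MedLow, upward in High.

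By mean CPM, the mitosis genes were most abundant in the MedLow bin, the second dimmest, and least abundant in High. Only 3 of the 36 were called higher in MedLow than in Low. The mean CPM was highest in MedLow for 35 of the 36 genes, against 19.8% of all genes tested, and lowest in High for the same 35, against 36.9% of all genes. In 33 genes the means fell in the order MedLow, Low, HiMed, High, an order held by 8.81% of all genes tested. Cdk1 and Aurka had HiMed above Low (4.69% of all genes), and Cdc25b, a phosphatase that activates Cdk1, ran the opposite way with its highest mean in High and its lowest in Low (12.6%). The median gene had 76.9% of its MedLow level in Low, 60.7% in HiMed and 39.2% in High. By the quasi-likelihood F test of edgeR, Benjamini-Hochberg adjusted over all genes and the source of every adjusted p below unless limma is named, 35 of 36 differed among the 4 bins, against 41.8% of all genes. Bub1 did not pass (adjusted p = 0.0757).

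**Figure D1:**
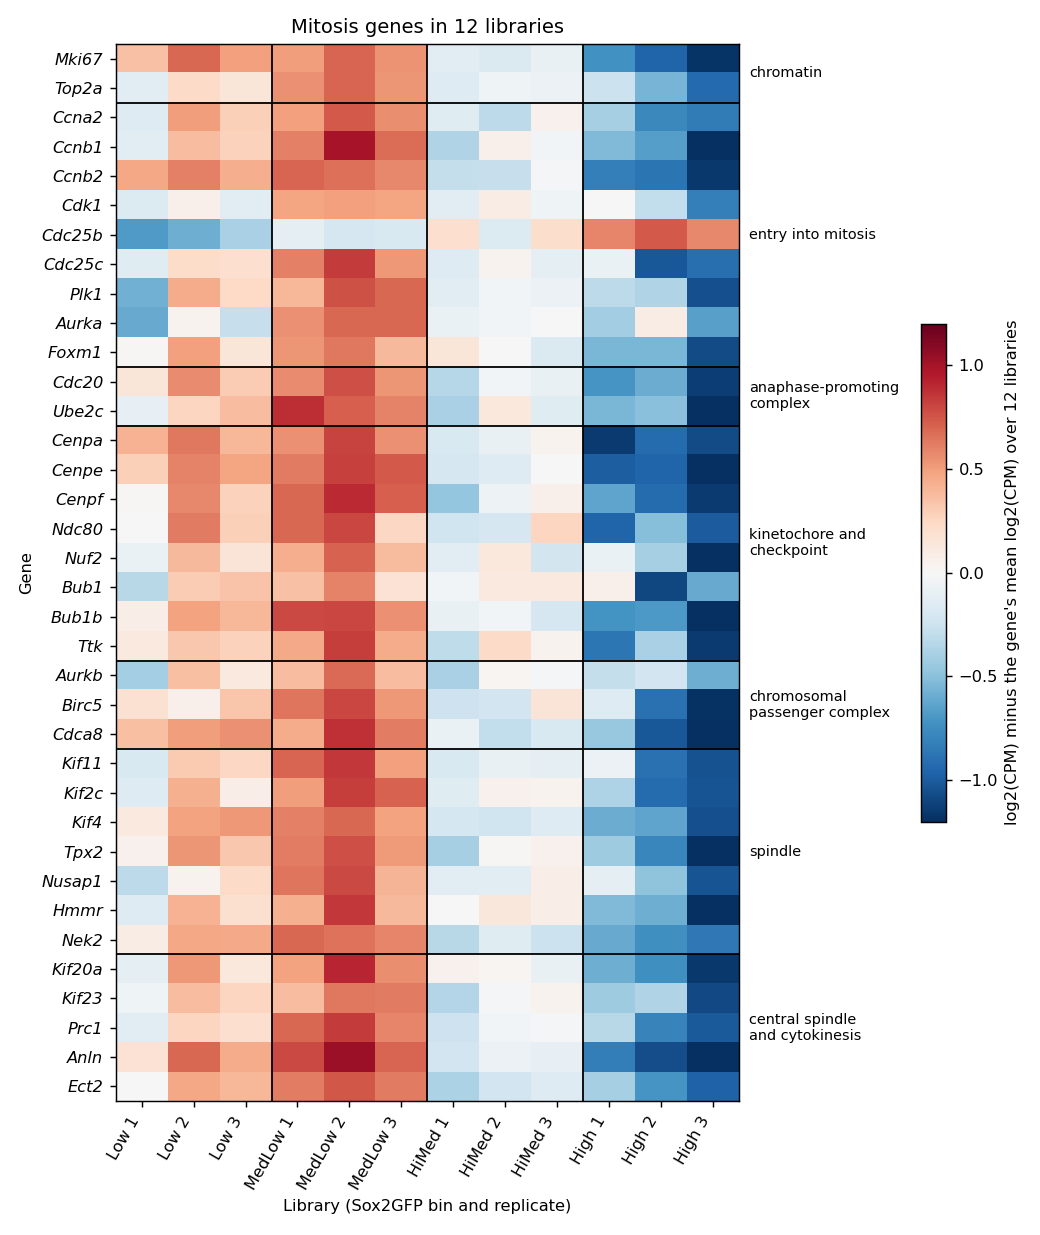
Heat map of the 36 mitosis genes (rows, grouped by role) in 12 libraries (columns, 3 per Sox2GFP bin); color is log2(CPM) minus the gene's own mean over the 12 libraries, with the scale ending at 1.2 in either direction. The MedLow columns are red and the High columns blue in nearly all rows, and the Cdc25b row runs the other way.

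Promoters of many mitotic genes are known to carry a CHR (cell cycle genes homology region) near the start site, bound by the MuvB complex, and CCAAT boxes, bound by NF-Y. The members moved together across the bins, so their promoter letters are shown. RefSeq promoter windows of build GRCm38.p6, 300 bases long with 250 before the annotated start and 50 from it on, were matched by symbol. The expression files name another build, so no coordinate was carried over. Windows were at hand for 30 of the 36 genes, 32 windows in all. Those of Tpx2, Aurkb, Kif20a, Foxm1, Cdc25c and Ccna2 were not used here. The CHR was searched as TTTGAA or TTCGAA and the CCAAT box as CCAAT, on both strands, so TTCAAA and ATTGG also count. A CHR was present in 81.2% of the mitosis windows and in 19.2% of all 32851 windows. A CCAAT box was present in 81.2% and 37.4%, and both motifs in 71.9% and 7.52%. Among windows of the genes tested here, 6.01% held both. By gene, 21 had both motifs, Anln, Kif2c and Ndc80 had the CHR without CCAAT, Ccnb1, Cenpe and Nek2 had CCAAT without the CHR, and Birc5, Nuf2 and Nusap1 had neither in this window. The next 4 sequences are those with both motifs and the largest High to Low change, and the fifth, Cdc25b, was chosen after its values were seen, as the gene that runs the other way. Each shows 200 bases before the start and 25 from it on, 5′ to 3′ on the gene's strand, with the motif letters in capitals: Cenpa at chr5:30666686-30666910 (+ strand), Mki67 at chr7:135716355-135716579 (− strand), Ccnb2 at chr9:70421530-70421754 (− strand), Cdca8 at chr4:124936893-124937117 (− strand) and Cdc25b at chr2:131186748-131186972 (+ strand). In Cdca8 a CHR and a CCAAT box share letters and print as a single run of capitals.
Cenpa: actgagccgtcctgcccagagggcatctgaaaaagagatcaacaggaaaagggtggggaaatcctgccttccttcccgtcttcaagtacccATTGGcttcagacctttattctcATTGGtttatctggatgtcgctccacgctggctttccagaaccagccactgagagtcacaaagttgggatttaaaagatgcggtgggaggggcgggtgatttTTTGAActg
Mki67: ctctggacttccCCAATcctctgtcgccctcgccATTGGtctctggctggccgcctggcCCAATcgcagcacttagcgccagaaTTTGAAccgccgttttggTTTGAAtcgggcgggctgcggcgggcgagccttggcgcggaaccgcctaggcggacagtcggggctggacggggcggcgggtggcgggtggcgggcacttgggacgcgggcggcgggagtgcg
Ccnb2: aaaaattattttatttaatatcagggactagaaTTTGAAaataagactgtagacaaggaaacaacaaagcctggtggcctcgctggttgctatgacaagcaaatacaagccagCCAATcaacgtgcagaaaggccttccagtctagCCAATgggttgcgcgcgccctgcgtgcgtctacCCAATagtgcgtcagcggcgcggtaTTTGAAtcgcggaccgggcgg
Cdca8: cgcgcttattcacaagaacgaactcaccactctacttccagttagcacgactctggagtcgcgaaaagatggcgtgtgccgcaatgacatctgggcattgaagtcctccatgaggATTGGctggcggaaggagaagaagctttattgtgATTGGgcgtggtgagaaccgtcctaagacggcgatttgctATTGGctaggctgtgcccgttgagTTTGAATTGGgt
Cdc25b: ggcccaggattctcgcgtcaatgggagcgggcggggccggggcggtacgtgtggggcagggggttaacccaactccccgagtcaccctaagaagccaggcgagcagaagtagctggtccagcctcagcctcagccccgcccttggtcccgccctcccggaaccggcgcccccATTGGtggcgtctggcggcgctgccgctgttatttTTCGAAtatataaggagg
The Mki67 stretch holds 2 CHRs and 3 CCAAT boxes, and the Cenpa stretch 1 CHR and 2 CCAAT boxes. The Cdc25b stretch also holds both motifs, 1 of each, so the search did not separate it from the genes that peaked in MedLow. Of the 36 CHR matches in all windows of the set, 27 began no more than 100 bases before the start or after it, with a median position of -1. Of the 62 CCAAT matches, 44 did, with a median of -67. A match describes letters and is not a measured binding site.

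**Figure D2:**
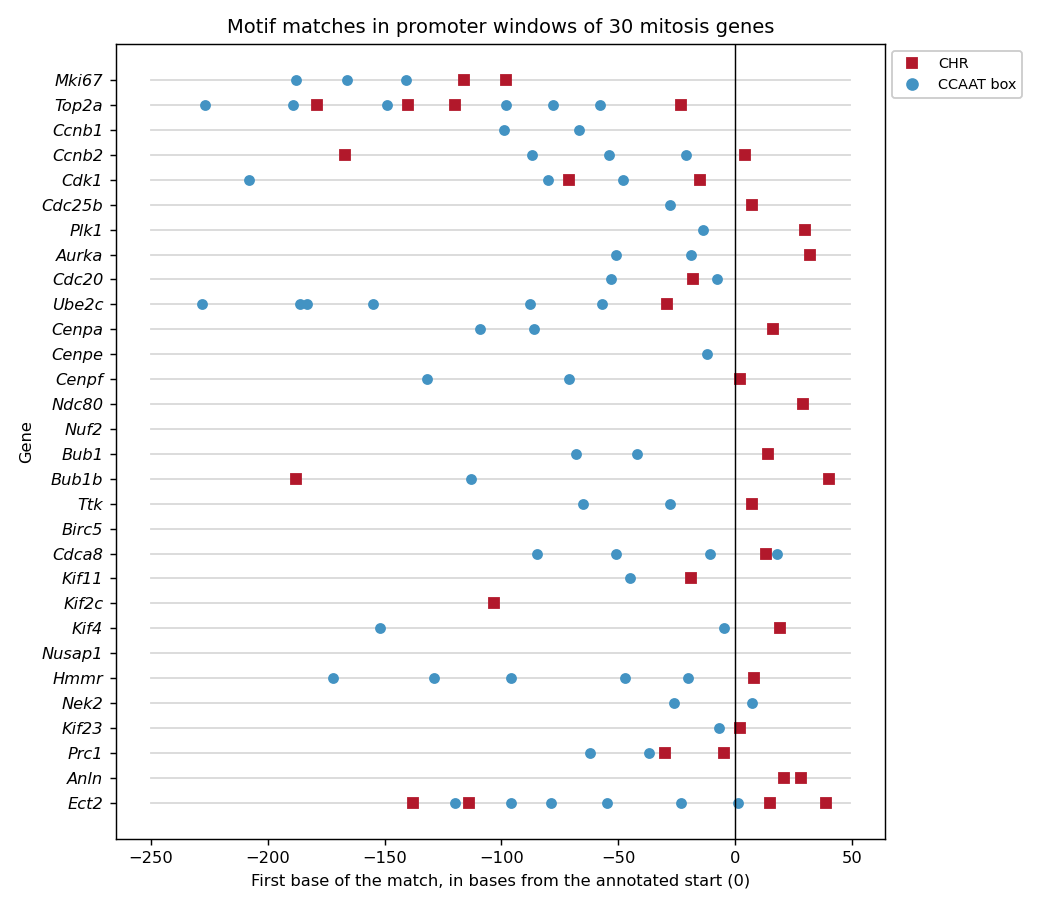
Position of each CHR match (squares) and CCAAT box match (circles) in the promoter windows of 30 mitosis genes, in bases from the annotated start at 0; Prc1 and Ect2 have 2 windows each, drawn on 1 line and each counted from its own start. CHR matches gather around the start (median -1) and CCAAT boxes before it (median -67), and Nuf2, Birc5 and Nusap1 have no mark.

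Mki67, which coats mitotic chromosomes and is the usual marker of cycling cells, had 471, 594 and 518 CPM in the 3 Low libraries, 522, 601 and 536 in MedLow, 335, 328 and 347 in HiMed and 223, 190 and 164 in High. Low and MedLow overlapped, HiMed lay below both, and High lay below HiMed. The log2 fold change was -1.46 ± 0.11 (SE) for High against Low (adjusted p = 2.96e-07) and 0.07 ± 0.11 for MedLow against Low (adjusted p = 0.88). Top2a, the topoisomerase that untangles DNA, had 212, 274 and 258 CPM for Low, 341, 378 and 337 for MedLow, 210, 225 and 222 for HiMed and 195, 159 and 122 for High. Its 3 MedLow libraries stood above all 9 others. It fell by 1.15 ± 0.14 on the log2 scale from MedLow to High (adjusted p = 2.28e-05).

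The 9 genes of entry into mitosis differed most among themselves in direction. From Low to High, 6 of the 9 fell and 1 rose (30 and 1 of all 36), where 21.2% of all genes tested were lower in High and 20.1% higher. Ccnb1, a cyclin B, had 34.9, 49.5 and 46.2 CPM for Low, 58.3, 76.2 and 60.8 for MedLow, 29.7, 39.8 and 37.3 for HiMed and 26.5, 24.2 and 16.1 for High. MedLow lay above the other 3 bins and High below them, while Low and HiMed overlapped. Ccnb2, the other B cyclin, was the most changed of the falling genes in this group, at 36.2, 39.98 and 35.50 CPM for Low, 42.6, 41.6 and 39.3 for MedLow, 21.5, 21.6 and 26.0 for HiMed and 14.9, 14.3 and 11.8 for High. It fell by 1.44 ± 0.12 from Low to High (adjusted p = 4.69e-07).

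Cdk1, the kinase that the B cyclins activate, followed a flatter course than its cyclins. It had 25.5, 29.9 and 26.3 CPM for Low, 39.9, 40.4 and 39.8 for MedLow, 26.1, 30.5 and 27.7 for HiMed and 28.7, 23.3 and 16.2 for High. The MedLow libraries were nearly equal and above all others, and the remaining bins overlapped. From MedLow to High it fell by 0.82 ± 0.16 (adjusted p = 0.0012), while High against Low was -0.26 ± 0.16 (adjusted p = 0.228). Aurka, a kinase that matures the spindle poles, had 11.1, 17.4 and 13.99 CPM for Low, 24.8, 27.4 and 27.2 for MedLow, 16.03, 16.5 and 16.9 for HiMed and 12.7, 17.97 and 10.8 for High. MedLow again stood apart, and the 3 other bins overlapped. High against Low was -0.03 ± 0.19 (adjusted p = 0.916), the smallest change of the 36, and the sign turned with library size alone as the scaling (0.04) and on log2(TPM + 1) (0.19). Aurka rose by 0.90 ± 0.19 from Low to MedLow (adjusted p = 0.0121), a call that ended without Low replicate 1 (adjusted p = 0.0588).

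Plk1, a kinase acting from entry to cytokinesis, had 21.6, 44.2 and 38.2 CPM for Low, 42.5, 55.1 and 52.2 for MedLow, 29.6, 31.7 and 30.8 for HiMed and 26.0, 25.3 and 15.6 for High. Low replicate 1 lay among the High libraries and the other 2 Low libraries lay near MedLow. Plk1 fell by 1.16 ± 0.23 from MedLow to High (adjusted p = 0.00132). Its call from Low to High (-0.63, adjusted p = 0.0432) ended without each of 9 libraries in turn (Low 2 and 3, all MedLow, all HiMed, High 3; adjusted p 0.0502 to 0.207). Foxm1, the transcription factor that drives many genes of this set, had 50.2, 70.0 and 55.0 CPM for Low, 71.8, 77.2 and 65.3 for MedLow, 55.2, 49.6 and 44.1 for HiMed and 34.1, 34.0 and 23.7 for High. Its High libraries lay below all others, and it fell by 0.93 ± 0.15 from Low to High (adjusted p = 0.000261). Ccna2, cyclin A, and Cdc25c, a further phosphatase that activates Cdk1, had means of 83.6 ± 7.31 and 18.6 ± 2.15 CPM (SD, n = 3) in MedLow and fell by 1.26 ± 0.16 and 1.27 ± 0.23 from there to High.

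**Figure D3:**
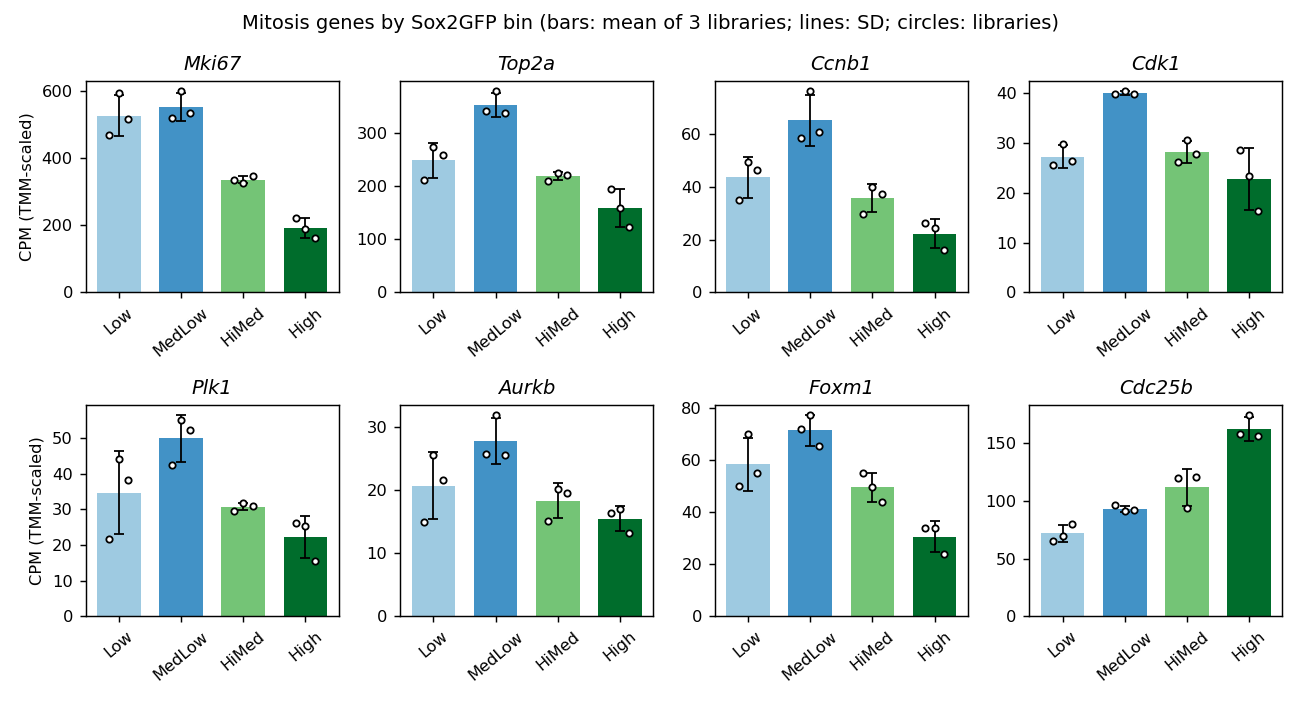
Level of 8 mitosis genes in CPM (axes start at 0) by Sox2GFP bin; bars are means of 3 libraries, lines are SD and circles are libraries. Top2a, Ccnb1, Cdk1, Plk1, Aurkb and Foxm1 have their highest bar in MedLow and lowest in High, Mki67 is level between Low and MedLow, and Cdc25b climbs from 71.9 CPM in Low to 163 in High.

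Cdc25b climbed where its neighbours in the pathway fell. It had 65.5, 70.0 and 80.2 CPM for Low, 96.3, 91.2 and 92.0 for MedLow, 120, 93.6 and 121 for HiMed and 158, 175 and 156 for High. High lay above all other libraries, Low lay below all others, and HiMed replicate 2 lay among the MedLow libraries. The gene rose by 1.18 ± 0.11 from Low to High (adjusted p = 1.19e-06), by 0.80 ± 0.11 from MedLow to High (adjusted p = 4.31e-05) and by 0.54 ± 0.11 from HiMed to High (adjusted p = 0.00229). MedLow against Low (0.37 ± 0.11) missed the threshold with adjusted p = 0.0537. Cdc25c, its relative, thus ran opposite to it (adjusted p = 0.000566 for its fall from MedLow to High).

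Cdc20 and Ube2c, the activator and the ubiquitin-conjugating enzyme of the anaphase-promoting complex, both fell from Low to High (21.2% of all genes tested were lower). Cdc20 had 99.2, 133 and 111 CPM for Low, 133, 153 and 130 for MedLow, 70.5, 87.3 and 84.4 for HiMed and 54.8, 59.3 and 40.9 for High. It fell by 1.14 ± 0.15 from Low to High (adjusted p = 2.46e-05), and each of HiMed and High lay below the bin before it. Ube2c had 50.4, 64.3 and 69.5 CPM for Low, 99.5, 88.4 and 81.3 for MedLow, 41.2, 58.9 and 48.6 for HiMed and 36.8, 38.0 and 22.6 for High. The 3 MedLow libraries exceeded every other library, and Low overlapped HiMed. Per length, Ube2c had the highest level of the 36 genes, with a mean of 114 TPM over 12 libraries, and the checkpoint kinase gene Ttk the lowest, with 7.94.

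Of the 8 genes of centromere, kinetochore and checkpoint, 7 fell from Low to High (21.2% of all genes tested were lower). Cenpa, the histone variant that marks centromeres, had 49.9, 57.9 and 49.4 CPM for Low, 54.8, 65.8 and 54.7 for MedLow, 33.0, 35.3 and 38.6 for HiMed and 16.9, 19.8 and 17.8 for High. Low and MedLow overlapped, and both later bins stood clear of the bin before. It fell by 1.53 ± 0.11 from Low to High (adjusted p = 1.59e-07). The motor gene Cenpe had a mean of 101 ± 6.71 CPM in MedLow and 29.4 ± 2.66 in High, and Bub1b, a checkpoint gene, 82.8 ± 7.90 and 27.1 ± 6.65. Bub1, a checkpoint kinase, was the exception, with 12.4, 19.3 and 19.8 CPM for Low, 20.005, 23.6 and 17.7 for MedLow, 15.3, 17.01 and 16.9 for HiMed and 16.3, 7.33 and 10.3 for High. High replicate 1 was as high as HiMed, and the other 2 High libraries were lower. Its call from MedLow to High (-0.86 ± 0.25, adjusted p = 0.0166) ended without MedLow 2, High 2 or High 3 (adjusted p 0.0568 to 0.0684). Ndc80 and Nuf2, partners in the complex that grips microtubules, fell by 1.41 ± 0.23 and 1.02 ± 0.24 from MedLow to High, and Cenpf and Ttk fell by 1.66 ± 0.17 and 1.36 ± 0.21.

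The chromosomal passenger complex corrects faulty attachments and later guides cytokinesis. Cdca8, its subunit borealin, had 39.2, 43.3 and 44.7 CPM for Low, 41.5, 55.9 and 46.8 for MedLow, 28.9, 24.9 and 26.8 for HiMed and 22.3, 15.1 and 12.1 for High. Low overlapped MedLow, and the brighter bins were stepwise lower, with -1.36 ± 0.18 for High against Low (adjusted p = 4.35e-05). Aurkb, the kinase of the complex, had 14.997, 25.5 and 21.6 CPM for Low, 25.7, 31.95 and 25.6 for MedLow, 15.2, 20.2 and 19.6 for HiMed and 16.3, 16.95 and 13.2 for High. MedLow lay above all other libraries, the next being Low replicate 2, and the other 3 bins overlapped. High against Low was -0.42 ± 0.19 (adjusted p = 0.101), and the sign turned on log2(TPM + 1) (0.15). Birc5, survivin, had 32.3 ± 3.23 CPM in MedLow and 12.8 ± 4.96 in High.

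Among the 7 spindle genes, 6 fell from Low to High, where 21.2% of all genes tested were lower in High. Kif4, a motor on chromosome arms, had 28.8, 36.9 and 38.1 CPM for Low, 40.4, 42.7 and 37.0 for MedLow, 22.9, 22.4 and 23.7 for HiMed and 17.5, 17.03 and 12.7 for High. HiMed lay within a narrow range below Low, and High was lower still (-1.13 ± 0.14 against Low, adjusted p = 1.96e-05). Nusap1, which bundles spindle microtubules, had 25.5, 32.7 and 37.3 CPM for Low, 49.6, 55.0 and 42.2 for MedLow, 29.0, 29.1 and 33.6 for HiMed and 29.4, 22.7 and 15.5 for High. MedLow was highest, Low and HiMed overlapped, and High replicate 1 reached the HiMed range. High against Low was -0.50 ± 0.20 (adjusted p = 0.0607), and from MedLow to High Nusap1 fell by 1.12 ± 0.20 (adjusted p = 0.000546). The bipolar motor Kif11, the microtubule depolymerase Kif2c, the assembly factor Tpx2, the spindle protein Hmmr and the centrosome kinase Nek2 fell by 1.29, 1.44, 1.43, 1.32 and 1.37 from MedLow to High.

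All 5 genes of the central spindle and cytokinesis fell from Low to High, as did 21.2% of all genes tested. Anln, the scaffold of the contractile ring, had the largest fall of the 36 genes from MedLow to High, and by CPM also from Low to High, where Cenpa (-1.53) was close and where on log2(TPM + 1) Anln (-1.15) came after Cenpa, Cenpe, Ccnb2, Mki67 and Cdca8. It had 101, 145 and 122 CPM for Low, 156, 183 and 145 for MedLow, 76.9, 85.7 and 84.0 for HiMed and 50.5, 43.0 and 31.1 for High. No library of 1 bin overlapped another bin, although MedLow replicate 3 and Low replicate 2 nearly met, and the fall was 1.56 ± 0.17 from Low (adjusted p = 4.88e-06) and 1.96 ± 0.17 from MedLow (adjusted p = 8.89e-07). Kif23, the motor of centralspindlin, had 72.6, 97.7 and 90.1 CPM for Low, 97.6, 117 and 116 for MedLow, 59.0, 74.1 and 77.6 for HiMed and 56.1, 58.6 and 35.6 for High. Low touched both MedLow and HiMed, and High lay below HiMed. It fell by 0.79 ± 0.18 from Low to High (adjusted p = 0.00238). Prc1, which cross-links midzone microtubules, Kif20a, a midzone motor, and Ect2, which activates the ring's GTPase, fell by 1.39 ± 0.16, 1.47 ± 0.18 and 1.34 ± 0.15 from MedLow to High.

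From bin to bin, the steps differed in how many genes were called. From Low to MedLow all 36 estimates were positive, with a median of 0.38 and a range from 0.07 (Mki67) to 0.90 (Aurka), where the median over all genes was -0.0008, and on log2(TPM + 1) Cenpa (-0.03) and Kif4 (-0.06) turned negative. Of these, 3 passed the test, Top2a, Aurka and Prc1, where 4.08% of all genes were higher in MedLow, and 21 had an unadjusted p under 0.05. The 3 MedLow libraries lay above the 3 Low libraries in 20 genes (14.4% of all genes). This count of 3 moved with single libraries: it was 0 without Low 1, 1 without Low 2 or any of MedLow 1, 2 and 3, and 7 without High 1 or High 3. It was 5 with the replicate number as a block, 6 with DESeq2, 1 on log2(TPM + 1) and 12 with only these 2 bins in the fit. Over all genes, 711 were higher in MedLow in the main fit and 386 on log2(TPM + 1). The same 3 genes were higher in MedLow than in both neighbouring bins, a pattern of 0.218% of all genes.

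From MedLow to HiMed 27 of 36 genes fell, with a median of -0.72, where 6.12% of all genes were lower in HiMed and 7.38% higher. Cdc25b was 0.26 ± 0.11 higher (adjusted p = 0.131). In 34 the HiMed libraries all lay below the MedLow libraries (17% of all genes), Cdc25b and Ndc80 being the exceptions. The 9 uncalled genes had adjusted p from 0.0529 (Cdk1) to 0.496 (Bub1). Without MedLow 2 the count was 17, and on log2(TPM + 1) 11, where 423 of all 17432 genes were lower. With the replicate block Cdc25c (-0.73) lost its call (adjusted p = 0.0539).

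From HiMed to High 23 of 36 fell and Cdc25b rose, with a median of -0.60, where 11.6% of all genes were lower in High and 10.6% higher. The High libraries lay below the HiMed libraries in 26 (17.5% of all genes). Without High 3 the count was 12, as it was on log2(TPM + 1), where 1071 of all 17432 genes were lower. Both falling steps, from MedLow to HiMed and from HiMed to High, were called in 20 genes (2.99% of all genes), among them Mki67, Ccnb2, Cdc20, Cenpa, Cenpe, Cenpf, Bub1b, Nek2 and Anln, whose calls at both steps held without each single library in turn. On log2(TPM + 1) Mki67, Ccnb2, Cdc20, Cenpa and Cenpe passed both tests as well, while from HiMed to High Cenpf (0.039) and Nek2 (0.17) turned positive and Bub1b and Anln lost the call (limma adjusted p = 0.0515 and 0.0531).

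Over the wider spans, 35 genes fell from MedLow to High and Cdc25b rose, with a median of -1.35, where 19.8% of all genes were lower and 18.2% higher. The 3 High libraries lay below the 3 MedLow libraries in these 35 (26.4% of all genes). From Low to High 30 fell (21.2% of all genes were lower) and Cdc25b rose (20.1% were higher), with a median of -0.93. Cdk1, Aurka, Bub1, Aurkb and Nusap1 missed the threshold, and 27 had High libraries all below Low (26.8% of all genes). The calls of Plk1, Nuf2, Cdc25c and Kif11 from Low to High each ended without at least 1 library. From Low to HiMed 10 fell (11.3% of all genes were lower) and Cdc25b rose (12.4% were higher), with a median of -0.29. The 10 were Mki67, Ccnb2, Cdc20, Cenpa, Cenpe, Cdca8, Kif4, Nek2, Anln and Ect2, and their count was 6 without Low 2.

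**Figure D4:**
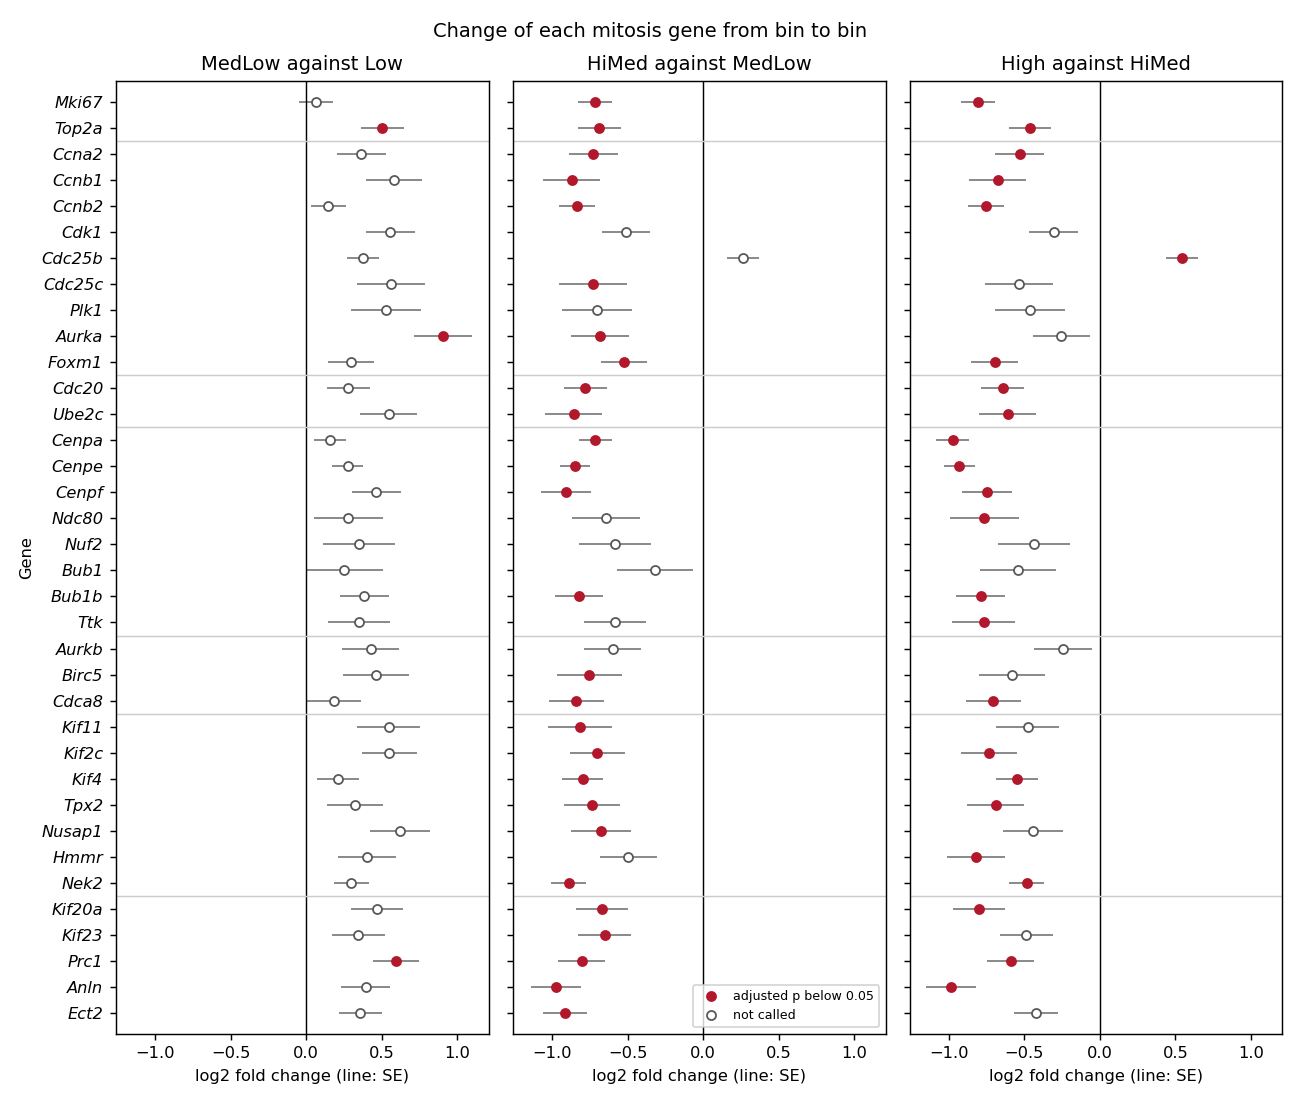
Log2 fold change of each of the 36 mitosis genes over the 3 steps from bin to bin, with lines for SE; filled points passed an adjusted p of 0.05. All points lie above 0 from Low to MedLow with 3 called, and 35 of 36 lie below 0 in each of the later steps, with Cdc25b above 0.

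Libraries of a bin moved as blocks across the set. Low replicate 1 was the lowest of its bin for 33 of the 36 genes and Low replicate 2 the highest for 29. MedLow replicate 2 was the highest for 32. HiMed replicate 1 was the lowest for 27. High replicate 3 was the lowest for 33 and High replicate 1 the highest for 25. Compared within a replicate number, MedLow exceeded Low for 36, 36 and 33 genes in replicates 1, 2 and 3. HiMed was below MedLow for 35, 35 and 34, and High was below HiMed for 27, 34 and 35. The drop from HiMed to High had a median of -0.21 in replicate 1, -0.63 in replicate 2 and -1.07 in replicate 3 (log2 ratio of CPM), so replicate 3 showed the steepest drop.

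Most of a further 61 mitosis genes, listed with earlier results of these data known, peaked in the same bin. They were read in the same 12 libraries and are not an independent check. From MedLow to High 49 of 61 fell (median -1.11), where 19.8% of all genes were lower. From MedLow to HiMed 24 fell (6.12% of all genes), and from HiMed to High 26 fell (11.6% of all genes). These counts were 38 and 10 without MedLow 2 and 16 without High 3. On log2(TPM + 1) they were 33, 7 and 9, where 1764, 423 and 1071 of all 17432 genes were lower. The mean was highest in MedLow for 54 of 61 (19.8% of all genes), and 34 had the order MedLow, Low, HiMed, High (8.81% of all genes). Spc25, Incenp, Sgo2a, Ckap2, Ckap2l and Hjurp rose from Low to MedLow (6 of 61, where 4.08% of all genes were higher), and for all of these but Hjurp the call ended without Low 1, MedLow 1 or MedLow 2. On log2(TPM + 1) none of the 6 passed (limma adjusted p = 0.0809 for Hjurp). Knl1, the kinetochore scaffold, had 28.3 ± 7.55 CPM for Low, 38.6 ± 3.87 for MedLow, 21.3 ± 0.610 for HiMed and 11.4 ± 0.747 for High. Knstrn and Cdkn3 had their highest means in Low and fell from Low to High by 1.74 and 2.64. Zwint and Hjurp rose from Low to High by 0.25 ± 0.07 (adjusted p = 0.011) and 0.40 ± 0.08 (adjusted p = 0.0014). Hjurp, the chaperone that loads Cenpa, had 76.9 ± 6.24 CPM in Low and 110 ± 3.89, 106 ± 6.86 and 102 ± 5.20 in the brighter bins, so its level did not follow that of its client Cenpa.

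Genes of DNA replication followed a flatter course. Of 32 S phase genes 15 fell from Low to High (median -0.41) and 17 from MedLow to High (median -0.52), where 21.2% and 19.8% of all genes were lower. The first count was 10 without Low 2. On log2(TPM + 1) both were smaller (4 and 7), where 2158 and 1764 of all 17432 genes were lower. The mean was highest in MedLow for 16, in HiMed for 9 and in Low for 7. Cdt1, which licenses origins, had 22.2 ± 1.33 CPM for Low, 21.1 ± 3.14 for MedLow, 16.99 ± 0.260 for HiMed and 10.4 ± 3.05 for High. Prim1 and Pola1, of the priming polymerase, fell from Low to High by 1.02 ± 0.27 and 0.82 ± 0.13. The summed level of the 35 mitosis genes other than Cdc25b was 2414 ± 343 CPM for Low, 3066 ± 247 for MedLow, 1826 ± 97.8 for HiMed and 1164 ± 233 for High. The summed level of the S phase genes was 874 ± 87.6, 955 ± 75.8, 873 ± 17.6 and 652 ± 75.6 CPM. Their ratio, mitosis over S phase, was 2.75 ± 0.118 for Low, 3.22 ± 0.227 for MedLow, 2.09 ± 0.135 for HiMed and 1.78 ± 0.198 for High, each of n = 3. The lowest MedLow ratio (2.96) was above the highest Low ratio (2.86), and the highest High ratio (2.00) lay within the HiMed range of 1.94 to 2.19.

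**Figure D5:**
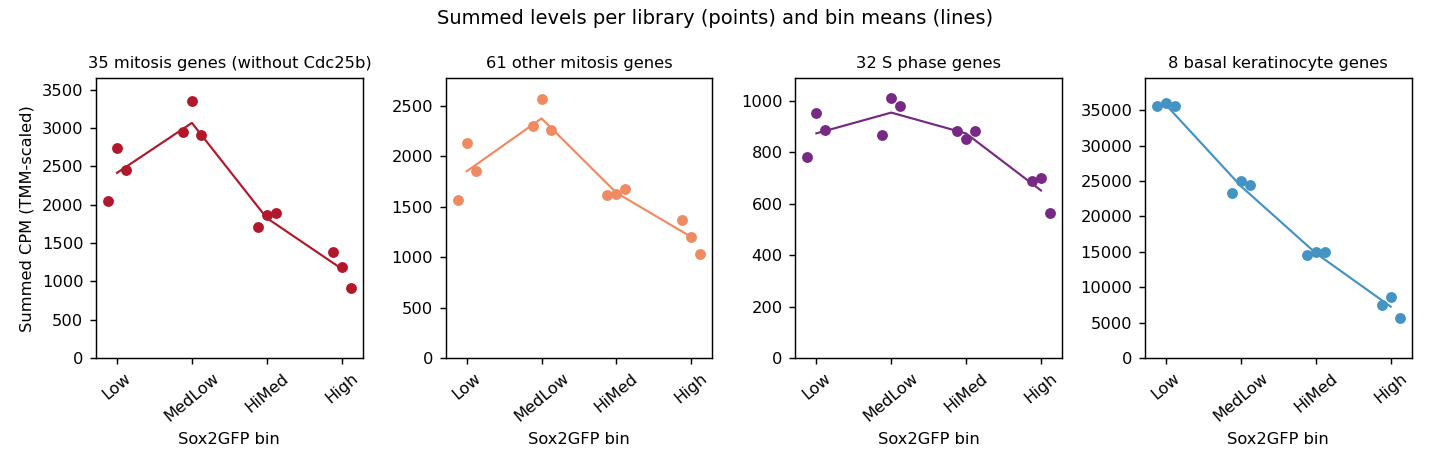
Summed CPM per library (points) and bin mean (line) for 35 mitosis genes, 61 other mitosis genes, 32 S phase genes and 8 basal keratinocyte genes, each axis from 0. Both mitosis sums peak in MedLow, the S phase sum varies less between Low, MedLow and HiMed, and the basal sum falls with each brighter bin.

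Among regulators of the cycle, Myc had 311 ± 39.7 CPM for Low, 335 ± 53.9 for MedLow, 158 ± 39.1 for HiMed and 47.5 ± 15.2 for High, and fell by 2.71 ± 0.24 from Low to High (adjusted p = 8.0e-07). The D cyclins, which act in G1, differed in their peak. Ccnd1 and Ccnd2 were highest in Low and Ccnd3 in HiMed. Ccnd1 was at 284 ± 18.1 CPM in Low and fell to 183 ± 18.8 in MedLow (adjusted p = 0.00039), and Ccnd2 fell from 470 ± 4.99 to 224 ± 7.17 (adjusted p = 0.00017). Among the G1 genes 4 of 9 fell from Low to High and 2 rose, Mycl and Cdk6, where 21.2% of all genes were lower and 20.1% higher. Of 16 genes of arrest and quiescence 7 fell and 1 rose from Low to High, and 4 fell without High 2. But on log2(TPM + 1) 2 fell and 6 rose, where 2158 of all 17432 genes were lower and 4355 higher. The gene that rose by CPM was Cdkn2b, a kinase inhibitor, at 12.7 ± 3.41 CPM for Low and 53.5 ± 7.57 for High (2.07 ± 0.19, adjusted p = 1.5e-06). Cdkn1b (p27) and Cdkn2c (p18) fell by 0.79 ± 0.11 and 0.78 ± 0.17 (adjusted p = 0.20 for the latter on log2(TPM + 1)). Of 18 tested genes of the MuvB, DREAM and E2F factors, which bind mitotic promoters or control their timing, 4 rose and 4 fell, shares by CPM close to those of all genes. On log2(TPM + 1) 7 rose and 3 fell, where 4355 of all 17432 genes were higher and 2158 lower. Lin37, a MuvB subunit, rose by 1.69 ± 0.16 (adjusted p = 1.8e-06). Lin9, another subunit, and E2f6 rose by 0.66 ± 0.18 and 0.68 ± 0.21, calls that ended without Low 3 and without Low 1 or High 1. E2f2, E2f8 and E2f4 fell by 1.75 ± 0.14, 1.26 ± 0.21 and 0.64 ± 0.10.

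Markers of other cells moved across the same bins. The 8 basal keratinocyte genes, the layer in which progenitors divide, summed to 35748 CPM for Low, 24276 for MedLow, 14816 for HiMed and 7264 for High, and all 8 fell from Low to High (21.2% of all genes). Set against that sum, the 35 mitosis genes had 67.5 ± 9.15 CPM per 1000 CPM of basal genes for Low, 126 ± 7.57 for MedLow, 123 ± 4.93 for HiMed and 161 ± 21.8 for High, so on this scale High was the highest bin and Low the lowest. That order turned with the basal gene chosen, a check added after seeing the data. The ratio was higher in High than in Low for Krt5, Krt14, Krt15, Col17a1 and Dst taken singly, and lower for Trp63, Itgb4 and Itga6. Its highest mean was in MedLow for 4 genes (Krt5, Trp63, Itgb4, Itga6) and in High for 4 (Krt14, Krt15, Col17a1, Dst). For Trp63, the transcription factor of basal cells, which had its highest mean in HiMed, the ratio was 2.78 ± 0.381 for Low, 3.36 ± 0.379 for MedLow, 1.99 ± 0.145 for HiMed and 2.61 ± 0.353 for High, with Low and High within each other's spread. The 8 taste bud genes, with Krt8 the most abundant in High, summed to 694, 466, 1096 and 3862 CPM, and all 8 rose from Low to High (20.1% of all genes). High replicate 3, the lowest High library for 33 mitosis genes, had the highest taste bud sum of the 12 (4995 CPM) and the lowest basal sum (5690). The other High libraries did not keep this order. High replicate 1, the highest for 25 mitosis genes, had a taste bud sum of 3653 and a basal sum of 7549. High replicate 2 had the lower taste bud sum (2940) and the higher basal sum (8553). The summed level of the 8 suprabasal genes peaked in MedLow as well, with 8280, 26437, 17410 and 2019 CPM, mostly from Krt13 and Krt4. Of the 8, Krtdap and Sprr3 were highest in HiMed. HiMed replicate 1, the lowest of its bin for 27 mitosis genes, had a suprabasal sum of 8409 against 25110 and 18710 in its fellows. Gland genes summed to 1420 CPM in Low, 210 in MedLow and 54.8 and 56.2 in the brighter bins. Low replicate 3 had 1505, Low replicate 1 had 711 and Low replicate 2 had 2045, the last 2 being lowest and highest for most mitosis genes. Of the 6 gland genes, 4 had their highest mean in Low, Lpo in HiMed and Aqp5 in High. Summed TPM of the gland genes was 715 for Low, 62.2 for MedLow, 21.9 for HiMed and 64.4 for High. Fibroblast genes summed to 612, 144, 37.1 and 13.5 CPM. Dcn made up nearly all of this except in High, where it had 6.95 CPM and Pdgfra, which was highest there, 5.99. Only 3 of the 8 fibroblast genes passed the filter. Col1a1, Col1a2 and Col3a1 had 92, 9 and 18 counts in all of Low, and Lum had 0 in every bin. Leukocyte genes summed to 37.8, 14.1, 44.1 and 180 CPM, mostly Lyz2, with Cd3e and Cd4 at 0 counts. Endothelial genes stayed under 84 CPM in any library and Schwann cell and melanocyte genes under 13. The part of these cell types in the levels of the mitosis genes was not tested.

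The TPM values, which adjust for transcript length, gave smaller falls for nearly all of the genes. From MedLow to High the log2 fold change was less negative on log2(TPM + 1) for all 35 genes other than Cdc25b, with a median over the 36 of -1.04 in place of -1.35, and from Low to High for 34 of 35, with a median of -0.66 in place of -0.93. The median over all genes moved too, to 0.15 and 0.14. By mean TPM, 32 genes were highest in MedLow, Cenpa and Kif4 in Low, and Cdc25b and Bub1 in High. Of the 35 falls from MedLow to High, 31 passed limma's test on log2(TPM + 1), and Cenpf, Nek2, Bub1 and Aurkb did not. From Low to High 23 passed, from MedLow to HiMed 11, from HiMed to High 12 and from Low to HiMed 4. Of all 17432 genes, 2158, 423, 1071 and 1249 were called lower in these comparisons on that scale, and 1764 from MedLow to High. Cenpf had 20.6, 21.7 and 7.20 TPM in High against 10.9, 18.2 and 15.2 in HiMed, and Nek2 had 22.7, 9.65 and 13.9 against 12.3, 13.3 and 12.8. Both thus scattered in High by TPM although their CPM in High lay below HiMed in all libraries. Bub1 had 22.96 TPM in High replicate 1 and 5.89 and 5.54 in the other 2. The CPM that went with 1 TPM was lower in High than in Low for these genes, with a ratio of 0.556 for Nek2, 0.582 for Bub1 and 0.660 for Cenpf, against a median of 0.861 over the 36 genes. Whether the bins use transcripts of other lengths was not tested.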

How the data were processed

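The 36 mitosis genes and all gene lists were chosen with earlier results of these data known. Named genes follow a rule: 8 fixed genes, the most and least changed member of each role, members against the majority, the uncalled member and, in the other lists, up to 3 called genes per direction. Some genes were added for their role or after their values were seen: Spc25, Incenp, Sgo2a, Ckap2, Ckap2l, and members given by mean or fold change alone.

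The submitters' processing notes name Salmon 1.4.0, DESeq2 1.28.1 and build mm39. The annotation and the role of DESeq2 in these files are not stated. The authors deposited estimated counts per gene symbol, of which 8.24 to 13.0% per library were not whole, and TPM values. Counts were rounded and fitted with edgeR 4.0.16 in R 4.3.3: filterByExpr with a minimum count of 10, TMM scaling, 1 term per bin over 12 libraries, quasi-likelihood F tests, Benjamini-Hochberg over 17432 genes, adjusted p below 0.05. The 35238 symbols left out held 0.0339% of counts. The common biological coefficient of variation was 0.366. CPM values are TMM-scaled, and SEs are those the F statistics imply. TPM was tested with limma 3.58.1 on log2(TPM + 1). The edgeR and limma fits were tested on simulated counts with changes in High alone, a smaller spread than here and no shared replicate effect. That run does not show how the fits behave on paired libraries with the present spread. Alternatives included DESeq2 1.42.0, other scalings and filters, a replicate block, TPM and leaving out each library; a robust fit was chosen after seeing the data.

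No library was a copy of another of its bin (chi-square over its degrees of freedom at least 27.6, at most 94.9). The replicate numbers were taken to pair the libraries, as the design text speaks of a replicate as pooled mice that were then sorted, although the labels do not say this outright. Libraries sharing a number deviated together (r between 0.0765 and 0.364 over 9650 genes, above 0.1 in 16 of 18 pairs), unlike the 36 remaining pairs (r between -0.297 and 0.0536). The labels give no batch or sorting day.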

Additional observations from a re-analysis of the deposited data

How the results depend on the processing

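The direction of the members' falls across the 3 brighter bins held under most alternatives, and the number called did not. The 132 calls of single mitosis genes between 2 bins gave 3036 results under alternatives, of which 2728 kept direction and call, 302 kept direction and lost the call, and 6 reversed. The 6 are on the TPM scale in High against HiMed: Cenpf at 0.039 on log2(TPM + 1) with and without the filter and 0.031 on log2(TPM + 0.1), and Nek2 at 0.17, 0.17 and 0.18. The tally holds only genes called in the main edgeR fit. Its settings share libraries, and the robust fit kept the main fold changes, so they are not independent checks. Genes without a call turned as well. On log2(TPM + 1) Bub1 was at 0.07 in High against HiMed, and 9 members were positive in HiMed against Low, in place of 3. The count that differed among the 4 bins (35) stayed between 26 and 36. On log2(TPM + 1) and on log2(TPM + 0.1) the counts were 12 and 12 for lower in High than HiMed, 4 and 4 for lower in HiMed than Low, 11 and 11 for lower in HiMed than MedLow, 1 and 1 for higher in HiMed than MedLow (Cdc25b, 0 in edgeR, where 1 had an unadjusted p under 0.05, and 0 in DESeq2) and 1 and 1 for higher in MedLow than Low. On log2(TPM + 1) with no filter they were 6, 4 and 5, with 0 for higher in MedLow than Low, 0 for higher in High than HiMed and 19 for lower in High than Low. The count higher in MedLow than Low (3) was 6 with DESeq2, 11 with no filter on low counts, 5 with the replicate block and 12 with only the 2 bins compared. Counts over all genes moved too. Those lower in High than MedLow, 3454 in the main fit, were 2864 to 3676 on leaving out a library and 1571 to 3595 otherwise. Whether the members gained or lost calls beyond all genes was not tested. The block otherwise changed no count by over 1.5 times. Leaving out each library gave 0 to 7 for higher in MedLow than Low, 12 to 28 for lower in High than HiMed, 6 to 13 for lower in HiMed than Low, 17 to 32 for lower in HiMed than MedLow and 0 to 1 for higher in HiMed than MedLow (1 without HiMed 2). The cause of these shifts was not tested, other than that leaving out a library or bin leaves fewer samples in the fit. Over all genes, the share of calls that were higher moved from 47.8 to 70.2% in High against MedLow, from 47.7 to 66.3% in High against HiMed and from 54.7 to 72.3% in HiMed against MedLow on log2(TPM + 1), and to 65.7% in the last with library size alone. The lowest count of a member in a library was 231, and the part of depth in the calls was not tested.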
